A study of Mus musculus with 6 samples.

Results

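The peroxiredoxins and thioredoxins are the proteins that remove peroxides and reduce disulphides at the expense of NADPH. They were taken here as 10 genes: PRDX1, PRDX2, PRDX3, PRDX4, PRDX5, PRDX6, TXN1, TXN2, TXNRD1 and TXNIP. Every probe whose name in the array file, ignoring case, was one of these was kept, and each probe was treated on its own. All 10 genes were found, out of 30854 gene names in the file, with 19 of its 45281 probes. The arrays compared C2C12 cells, a mouse myoblast line that fuses into myotubes when differentiation is induced, after transfection with 60 nM of a scramble siRNA (3 arrays) or of an siRNA against *Dj1* (3 arrays). Differentiation was induced 48 h after transfection and the myotubes were harvested 4 days after that. A single siRNA stood for each group, so an effect of *Dj1* loss and an effect of that duplex on other transcripts cannot be told apart. The comparison asks which transcripts differ in muscle cells after *Dj1* knockdown.

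A peroxiredoxin reduces hydrogen peroxide through a cysteine that becomes oxidised in the reaction. Thioredoxin returns the oxidised peroxiredoxin to its reduced form, and thioredoxin reductase then reduces thioredoxin with electrons from NADPH. The cytosol and the mitochondrion each hold their own thioredoxin, and TXNIP, an alpha-arrestin, binds reduced thioredoxin and restrains it. TXNIP also lowers glucose uptake, and its gene is switched on when glucose metabolites accumulate, in muscle among other tissues.

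DJ-1 itself is encoded by Park7, and the fall of this transcript checks the labels. Its probe (ILMN_2728754) had deposited signals of 12019.5, 10900.4 and 12251.4 with the control siRNA, against 5934.8, 6585.5 and 4233.7 after *Dj1* knockdown. Every knockdown array was therefore below every scramble array. After background correction and quantile normalization its log2 fold change was -1.16, with a standard error of 0.14 and an adjusted p of 0.00344 (limma). The 95% confidence interval for the signal left was 35.7% to 55.9%.

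Of the 19 member probes, 13 were detected on at least 3 arrays (detection p under 0.05) and were tested, and these cover 9 of the 10 genes. PRDX6 was the gene with no tested probe. After *Dj1* knockdown 3 member probes rose and 2 fell at an adjusted p under 0.05 (limma), or 23.1% and 15.4% of those tested. Across all 17890 tested probes the shares were 16.5% higher and 13.6% lower, 30.1% in all, against 38.5% of the member probes. For 6 of the 13 member probes (46.2%) the groups had no overlap, against 48.5% of all tested probes. The median log2 fold change was 0.02 over the 13 probes and 0.05 over all tested probes. This order depended on the processing. With the arrays shifted to a common 75th percentile after background correction, the medians were 0.13 and 0.07. With each array left out, the member median ran from -0.11 (without DJ-1 siRNA replicate 3) to 0.07 (without scramble replicate 3). What set the members apart from each other was size, since the changes of TXNIP were several times those of any other member. The plot of normalized signal by array shows the tested probes side by side.

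**Figure D1:**
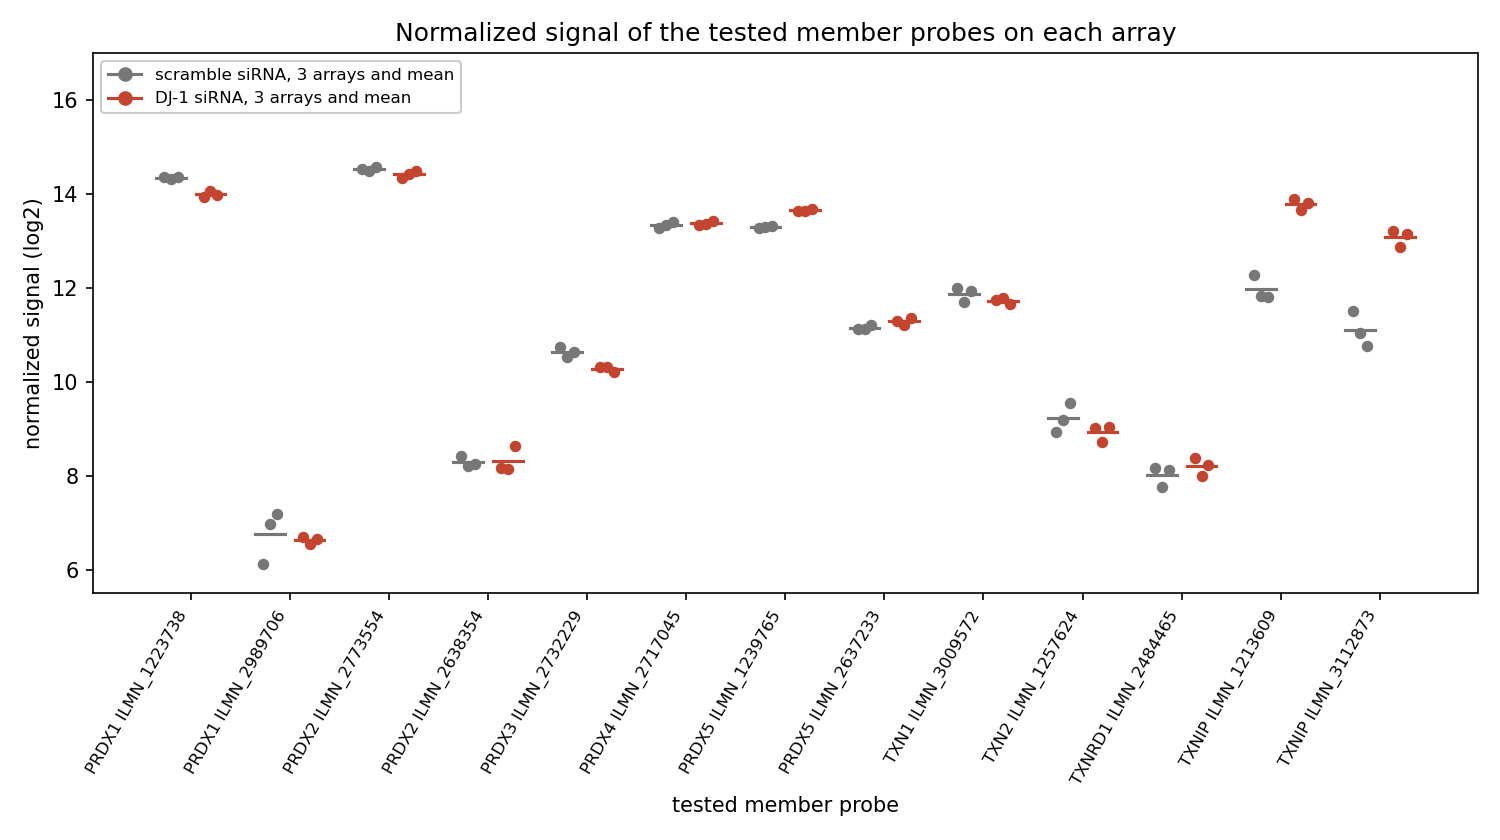
Normalized log2 signal (vertical axis) of the 13 tested member probes (horizontal axis) on each array, with scramble siRNA in grey, DJ-1 siRNA in red and the mean of 3 arrays as a bar. Both TXNIP probes were far higher on all 3 DJ-1 siRNA arrays, while the other probes moved by less than 0.4 on the log2 scale.

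The inhibitor changed most. TXNIP is represented by 2 probes, which the file assigns to different RefSeq transcripts of the gene. The brighter probe (ILMN_1213609) had deposited signals of 5028, 3825.3 and 3615.5 with the control siRNA, against 15597, 14683.6 and 13173.5 after *Dj1* knockdown. The dimmer probe (ILMN_3112873) gave 3069.5, 2270 and 1810.1 with scramble siRNA and 9537.9, 8660.4 and 8458.6 with DJ-1 siRNA. On both probes the lowest knockdown array lay well above the highest scramble array, and the scatter within a group was small beside the gap. The ratio of the group means of deposited signal was 3.485 for the brighter probe and 3.728 for the dimmer probe, before any normalization.

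On the normalized scale the brighter TXNIP probe went from 11.97 ± 0.26 (SD, n = 3) to 13.79 ± 0.12 (SD, n = 3). This is a log2 fold change of 1.81 (95% confidence interval 1.44 to 2.18, adjusted p = 0.00268 from limma), or 3.51-fold. The dimmer TXNIP probe went from 11.11 ± 0.37 to 13.08 ± 0.17 (SD, n = 3 each), a log2 fold change of 1.97 (95% confidence interval 1.49 to 2.45, adjusted p = 0.00299 from limma), or 3.92-fold. Ordered by fitted change from the largest rise, the TXNIP probes were at places 33 and 18 of the 17890 tested probes. A two-sided exact permutation test of the brighter probe gave p = 0.1, the smallest that 3 arrays against 3 allow. Both TXNIP probes were called under all 14 alternatives of the processing, with log2 fold changes from 1.73 to 1.98 and from 1.80 to 2.18. In RNA from whole cultures, a change in the make-up of the cell population and a change in the amount of RNA per cell cannot be told apart, here or for the other members.

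**Figure D2:**
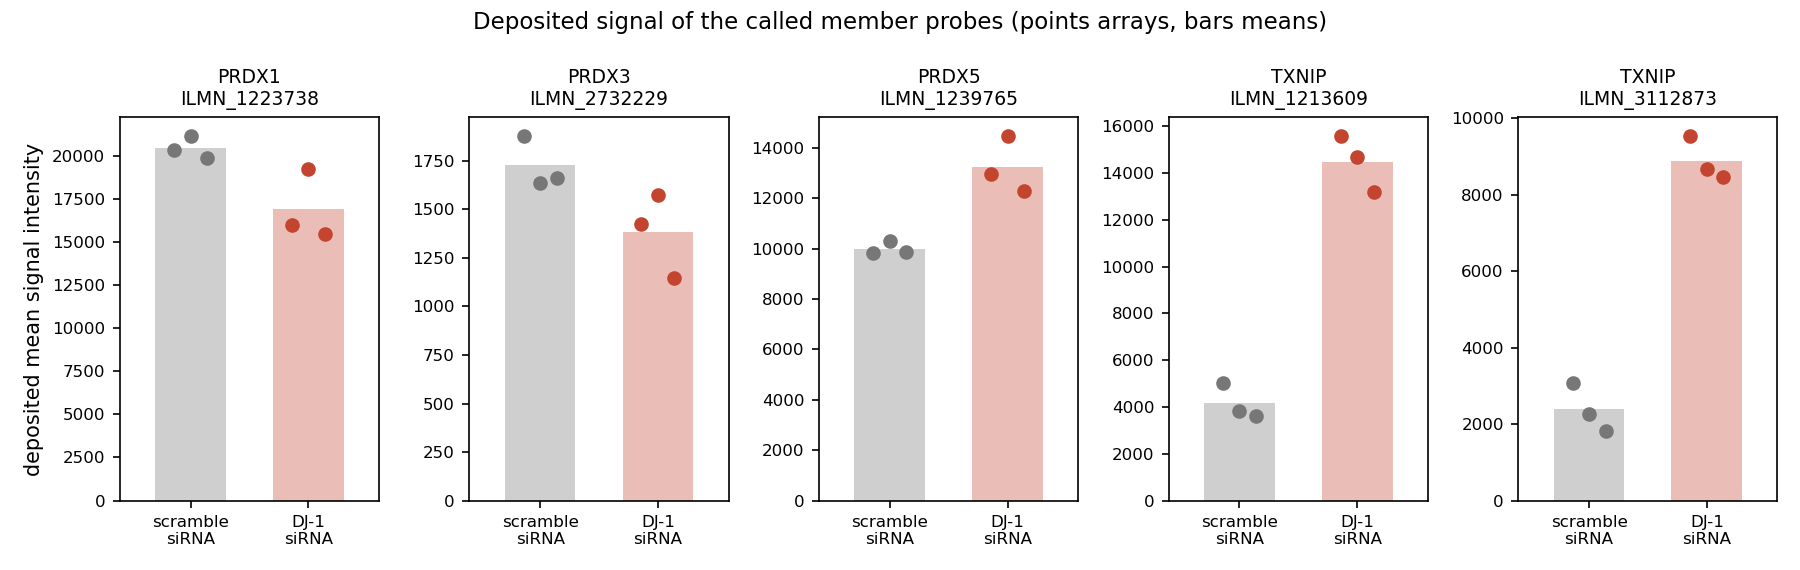
Deposited mean signal intensity (vertical axis, linear and from 0, before normalization) of the 5 called member probes, with each array as a point and the mean of 3 arrays as a bar, scramble siRNA in grey and DJ-1 siRNA in red. TXNIP more than tripled on both probes (ratios of 3.485 and 3.728), against ratios of 0.825 for PRDX1, 0.7995 for PRDX3 and 1.325 for PRDX5.

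The promoter of Txnip is shown because this gene moved most and because glucose-sensing factors are known to act on it through a pair of short boxes. Promoters of 300 bases were taken from RefSeq (GRCm38.p6), where 9 of the 10 genes matched by symbol, with 11 promoters between them. Arrdc4, the alpha-arrestin closest to Txnip in its change here, is set beside it. In both sequences capitals mark CCAAT on either strand, which reads ATTGG on the other strand. In Txnip they mark in addition a pair of CACGNG boxes 5 bases apart, and in Arrdc4 the box CACGTG.
Txnip, chr3:96557707-96558006, plus strand: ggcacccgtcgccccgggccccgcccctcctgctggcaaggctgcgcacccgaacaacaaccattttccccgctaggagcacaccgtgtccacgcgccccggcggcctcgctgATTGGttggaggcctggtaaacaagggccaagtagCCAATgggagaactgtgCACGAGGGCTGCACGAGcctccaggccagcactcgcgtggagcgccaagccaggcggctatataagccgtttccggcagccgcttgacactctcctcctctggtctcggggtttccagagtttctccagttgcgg
Arrdc4, chr7:68749189-68749488, minus strand: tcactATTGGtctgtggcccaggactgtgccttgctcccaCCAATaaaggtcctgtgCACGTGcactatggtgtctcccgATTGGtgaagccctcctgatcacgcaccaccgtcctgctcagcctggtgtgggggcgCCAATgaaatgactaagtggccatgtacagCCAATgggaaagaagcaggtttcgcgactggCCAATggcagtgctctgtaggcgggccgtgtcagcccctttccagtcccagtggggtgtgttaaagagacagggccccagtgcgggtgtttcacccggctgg

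The paired CACGNG boxes of Txnip span bases 166 to 182 of the printed sequence. On either strand, such a pair was found in 16 of 32851 promoters of this length (0.0487%), and Txnip was the 1 member gene that held it. The pair was searched because it is known from Txnip, so its presence there was fixed in advance. CACGTG occurs in 7.15% of all promoters and, among the members, in Prdx4. The CACGTG of Arrdc4 spans bases 58 to 63. CCAAT was found 2 times in Txnip and 6 times in Arrdc4, and at least 1 time in 37.4% of all promoters. These matches describe the letters of the windows, and binding was not measured on these arrays.

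The relatives of TXNIP and the factors known to act at its promoter were taken as a list of 11 genes. Of the 19 probes for them, 7 were tested, with 2 called higher and 1 lower (limma), or 42.9% against 30.1% over the array. The median log2 fold change of the 7 was 0.25. Arrdc4 (ILMN_2648967) had normalized log2 signals of 5.78, 6.10 and 6.99 with the control siRNA, against 8.17, 7.86 and 8.37 after *Dj1* knockdown. Its log2 fold change was 1.84 (95% confidence interval 1.10 to 2.59, adjusted p = 0.00811 from limma), and every knockdown array was above every scramble array. Its size depends on the background correction, since without it the value was 0.95 on the log2 scale, still with a called rise. The other tested alpha-arrestins, chosen after their values were seen, were not called and their groups overlapped. Arrdc2 was at 0.47 (95% confidence interval -0.14 to 1.09, adjusted p = 0.208 from limma) and Arrdc3 at 0.25 (95% confidence interval -0.14 to 0.63, adjusted p = 0.285 from limma).

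The remaining called probes of that list belong to subunits of NF-Y, the factor that binds CCAAT. Nfyb rose, at a log2 fold change of 0.80 with a standard error of 0.14 (adjusted p = 0.0098, limma). Nfyc fell, at -1.22 with a standard error of 0.12 (adjusted p = 0.00292, limma). Nfyb and Nfyc thus changed in opposite directions, with no overlap between the groups in either. The probe of Nfya, a further subunit gene of the list, was detected on 1 DJ-1 siRNA array only and was not tested. Another probe of Nfyc was detected on no array. Mlxip encodes the glucose-sensing factor that acts on Txnip in muscle. None of its 4 probes was detected on more than 1 array, so its change could not be measured, and its level in these cells is not given by the array.

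The thioredoxins and the reductase followed TXNIP neither up nor down at the threshold. TXN1, the cytosolic thioredoxin, was measured by its bright probe (ILMN_3009572), with normalized log2 signals of 12.01, 11.70 and 11.93 with the control siRNA, against 11.74, 11.80 and 11.66 after *Dj1* knockdown. The groups overlapped. Its log2 fold change was -0.15 (95% confidence interval -0.43 to 0.13, adjusted p = 0.376 from limma). The other 2 probes of TXN1 were not detected on any array and tell nothing about its level.

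TXN2, the mitochondrial thioredoxin, had a log2 fold change of -0.30 (ILMN_1257624, 95% confidence interval -0.73 to 0.13, adjusted p = 0.249 from limma). Its scramble arrays were spread from 8.95 to 9.56 on the log2 scale, and the knockdown arrays from 8.73 to 9.05, so that the groups overlapped. TXNRD1, the cytosolic reductase that recycles TXN1, was at 0.18 (ILMN_2484465, 95% confidence interval -0.19 to 0.56, adjusted p = 0.413 from limma). As a share of the control level, the intervals were 74.5% to 109% for TXN1, 60.3% to 109% for TXN2 and 87.6% to 147% for TXNRD1. These values depended on single arrays, and those of TXN1 and TXNRD1 on the processing as well. With the arrays shifted to a common 75th percentile after background correction, TXN1 was at -0.02. With that shift and no background correction, TXN1 was at -0.07 and TXNRD1 at 0.09. TXN1 was at -0.24 without scramble replicate 2 and -0.08 without scramble replicate 1. TXN2 was at -0.45 without scramble replicate 1, -0.14 without scramble replicate 3 and -0.20 without DJ-1 siRNA replicate 2. TXNRD1 was at 0.055 without scramble replicate 2, at 0.09 when DJ-1 siRNA replicate 1 was absent and at 0.28 when replicate 2 of that siRNA was. None of the tested probes of TXN1, TXN2 and TXNRD1 was called under any of the 14 alternatives.

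**Figure D3:**
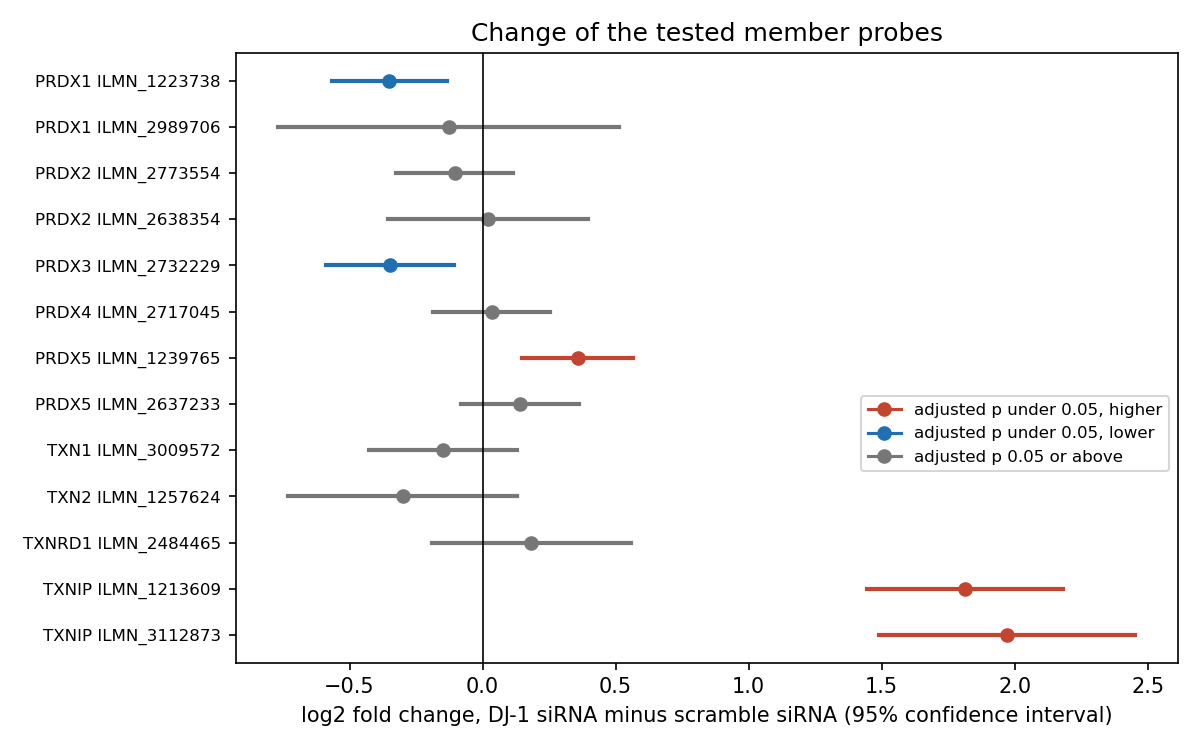
Log2 fold change (horizontal axis, DJ-1 siRNA minus scramble siRNA) of the 13 tested member probes (vertical axis) with 95% confidence intervals from 3 arrays per group, in red or blue where the adjusted p was under 0.05 and in grey otherwise. TXNIP stands at 1.81 and 1.97, while every other probe lies between -0.35 and 0.36, and under a shift to a common 75th percentile the sign turns for the bright PRDX2 probe, and for the dim PRDX2 probe if background correction is left out as well.

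Among the peroxiredoxins, 8 of 12 probes were tested, with 1 called higher and 2 lower, or 37.5% against 30.1% of all tested probes. PRDX1 and PRDX2 are the abundant cytosolic forms. The bright probe of PRDX1 (ILMN_1223738) had deposited signals of 20352.8, 21153.5 and 19876.8 with scramble siRNA and 15970.8, 19225.4 and 15451.4 with DJ-1 siRNA. All 3 knockdown arrays were below all 3 scramble arrays. Its log2 fold change was -0.35 (95% confidence interval -0.57 to -0.13, adjusted p = 0.0295 from limma), or 78.4% of the control level.

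The fall of PRDX1 was small and its call depended on the processing. It was called under 5 of 14 alternatives, with log2 fold changes between -0.39 and -0.18. With single arrays left out, it kept its call only when DJ-1 siRNA replicate 2 was absent (-0.39), and the values ran from -0.39 to -0.33. The dim probe of PRDX1 (ILMN_2989706) was at -0.13 (95% confidence interval -0.77 to 0.51, adjusted p = 0.754 from limma), and its groups overlapped. That probe rests on a low scramble replicate 1 (6.12 on the log2 scale, against 6.99 and 7.18), without which it was called lower, at -0.45 (adjusted p = 0.0358, range over its alternatives 0.0358 to 0.9745).

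PRDX2 was not called on either tested probe. Its bright probe (ILMN_2773554) had deposited signals from 22138.6 to 23057.1 with scramble siRNA and from 21327 to 24539.2 with DJ-1 siRNA, so that the knockdown arrays lay on both sides of the scramble arrays. The log2 fold changes were -0.10 (95% confidence interval -0.32 to 0.12) and 0.02 (95% confidence interval -0.36 to 0.39), and neither sign was stable. With the arrays shifted to a common 75th percentile the bright probe was at 0.13, and the dim probe turned, to -0.02, only if background correction was left out as well. PRDX4 resides in the endoplasmic reticulum, where it takes part in oxidative protein folding. Its bright probe (ILMN_2717045) was at 0.03 (95% confidence interval -0.19 to 0.26, adjusted p = 0.807 from limma), or 87.9% to 119% of the control level. With the 75th percentile shift this PRDX4 probe was at 0.20 after background correction and 0.14 without it. With each array left out its value ran from 0.003 to 0.07, and it was called under none of the alternatives.

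PRDX3 and PRDX5 are the peroxiredoxins of the mitochondrion, PRDX5 being found elsewhere in the cell as well. PRDX3 (ILMN_2732229) had normalized log2 signals of 10.74, 10.53 and 10.63 with the control siRNA, against 10.33, 10.32 and 10.21 after *Dj1* knockdown. Each knockdown array was thus below each scramble array. The log2 fold change was -0.35 (95% confidence interval -0.59 to -0.11, adjusted p = 0.042 from limma). The call was close to the threshold and was kept under 5 of 14 alternatives. It was lost whichever single array was left out, at values from -0.40 to -0.29.

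PRDX5 moved the other way. Its brighter probe (ILMN_1239765) had deposited signals of 9816.3, 10308 and 9890.7 with the control siRNA, against 12985.5, 14490.5 and 12306.2 after *Dj1* knockdown. The groups were well apart, and the scramble arrays were close together. The log2 fold change was 0.36 (95% confidence interval 0.15 to 0.57, adjusted p = 0.0244 from limma), or 1.28-fold. The dimmer probe of PRDX5 (ILMN_2637233) had a log2 fold change of 0.14 (95% confidence interval -0.08 to 0.36, adjusted p = 0.294 from limma), again without overlap between the groups. With a shift to a common 75th percentile after background correction it was at 0.27, still not called (adjusted p = 0.0856 from limma). The brighter probe was called under 7 of 14 alternatives, and with single arrays left out only without scramble replicate 1, while its value stayed between 0.34 and 0.52.

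**Figure D4:**
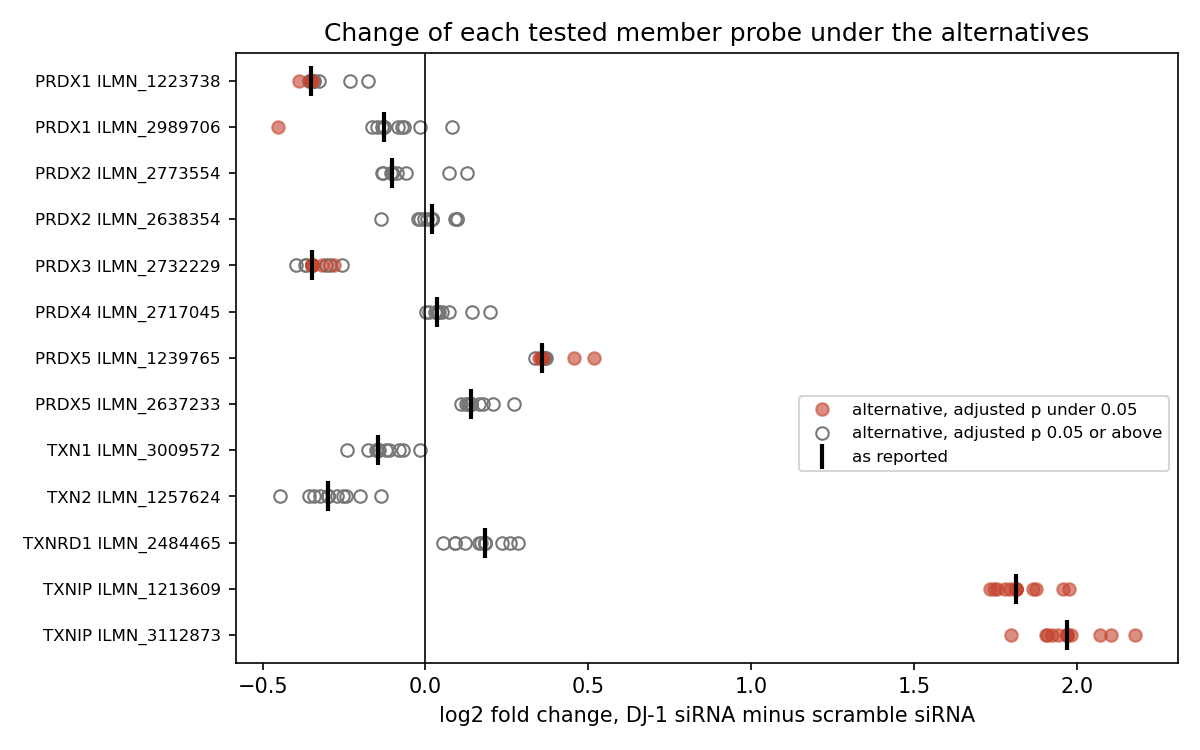
Log2 fold change (horizontal axis) of each tested member probe (vertical axis) under each alternative of the processing, filled where the adjusted p was under 0.05, with the reported value as a black bar. TXNIP is filled throughout (1.73 to 2.18), PRDX1, PRDX3 and PRDX5 keep their sign on their called probes but not always their call, and both PRDX2 probes, and the dim PRDX1 probe without scramble replicate 3, cross 0.

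PRDX6, the cytosolic form that works with a single cysteine and is recharged by glutathione, could not be assessed. Its probes had deposited signals between 149.5 and 181 (ILMN_2623947) and between 139.7 and 172.6 (ILMN_2623951), and the first was detected on 2 of the DJ-1 siRNA arrays and no scramble array. The further untested probes, 1 of PRDX2, 1 of PRDX4 and 2 of TXN1, were not detected on any array. An undetected probe is no sign of an absent transcript, since other probes of these same genes were detected on all 6 arrays.

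The partners of the thioredoxin system were examined from a list of 24 genes, with 29 tested probes. Of these 4 fell and 0 rose (limma). The methods' t-test gave 0 higher and 3 lower after adjustment, against 1994 and 1680 of 17890 over the array. The called share was 13.8%, against 30.1% over the array. This split and the distance to the array depended on the processing. Without background correction 4 probes were called higher and 5 lower, 9 of 29 against 6296 of 17890 over the array. There were 3 higher and 4 lower, 7 of 29 against 5403 of 17890, with the arrays shifted to a common 75th percentile after background correction. Over the list the median change was 0.05 on the log2 scale.

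Sulfiredoxin, encoded by Srxn1, repairs peroxiredoxins whose cysteine has been overoxidised. Its probe ILMN_1229994 had normalized log2 signals of 6.45, 6.47 and 6.82 with the control siRNA, against 5.12, 5.54 and 5.87 after *Dj1* knockdown, where it was detected on 2 of 3. This gave a log2 fold change of -1.07, with a standard error of 0.21 and an adjusted p of 0.0125 (limma). Without background correction it was -0.37, so the size of this fall is uncertain. The call was lost with the methods' t-test (adjusted p = 0.0563, range over the alternatives 0.005 to 0.0563). The other probes of Srxn1 were at -0.42 (95% confidence interval -0.85 to 0.01) and -0.48 (95% confidence interval -0.93 to -0.03), with adjusted p of 0.122 and 0.0976 from limma. The former was called lower when DJ-1 siRNA replicate 2 was left out (-0.61), and the latter when scramble replicate 1 was (-0.70).

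Txnrd2, the mitochondrial reductase that recycles TXN2, was at -0.04 (95% confidence interval -0.35 to 0.27, adjusted p = 0.837 from limma). Txnl4a, a thioredoxin-like protein of the spliceosome, fell on 1 of its 4 tested probes, at -0.74 on the log2 scale (ILMN_2634749, adjusted p = 0.00648 from limma), while the others, at 0.32, 0.36 and -0.02, were not called. These others were chosen after their values were seen. Txndc15, which carries a thioredoxin domain, fell on ILMN_2655250, at -0.73 (adjusted p = 0.00557, limma), and on ILMN_2923736, at -0.51 (adjusted p = 0.00989, limma), the latter chosen after its value was seen. Proteins that thioredoxin reduces or holds, such as ribonucleotide reductase and the methionine sulfoxide reductases, had 9 tested probes. Of these 0 were called by limma, against 30.1% over the array, and 0 with the methods' t-test, against 3674 of 17890. The tested probes cover 5 of the 8 listed genes. Map3k5, Msra and Msrb3 had no tested probe, so the counts say nothing about them. The list had a median log2 fold change of -0.02, with values from -0.76 to 0.07.

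PRDX1, TXNRD1 and Srxn1 are known targets of NRF2, the factor that DJ-1 is known to stabilise and that drives antioxidant genes through the antioxidant response element. The core of that element, TGACNNNGC, was searched on both strands and occurs in 12.4% of all promoters. Among the members it was found in 2 genes, Prdx1 and Txnrd1, the latter in 1 of its 3 promoters. It is in capitals in the promoters of Prdx1, called lower on its bright probe only, and of Srxn1, called lower on 1 of its 3 probes. Txnrd1 was not called, and its promoters are not printed.
Prdx1, chr4:116685349-116685648, plus strand: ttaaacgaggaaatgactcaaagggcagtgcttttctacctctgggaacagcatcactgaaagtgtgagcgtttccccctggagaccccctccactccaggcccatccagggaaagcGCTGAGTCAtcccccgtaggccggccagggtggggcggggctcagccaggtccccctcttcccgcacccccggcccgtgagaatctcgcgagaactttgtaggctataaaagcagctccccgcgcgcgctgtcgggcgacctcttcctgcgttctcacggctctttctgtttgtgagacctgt
Srxn1, chr2:152105274-152105573, plus strand: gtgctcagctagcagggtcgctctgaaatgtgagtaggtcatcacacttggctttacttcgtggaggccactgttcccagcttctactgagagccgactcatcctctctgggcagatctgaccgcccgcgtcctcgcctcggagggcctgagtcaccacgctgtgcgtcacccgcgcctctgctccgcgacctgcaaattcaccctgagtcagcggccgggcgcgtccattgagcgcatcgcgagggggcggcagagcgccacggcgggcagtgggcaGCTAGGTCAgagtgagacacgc

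Outside the family, 19 of 24 NRF2 target genes had a tested probe, 23 probes in all, and their median log2 fold change was 0.10. Of these probes 8 were called higher and 2 lower (limma), or 34.8% and 8.7%, against 16.5% and 13.6% over the array. The biliverdin reductase gene Blvrb led the rises, with log2 fold changes of 1.06 and 0.83 on its 2 probes (adjusted p of 0.00285 and 0.00443 from limma). The probes that fell were the Srxn1 probe above and the probe of Gclc, at -0.77. Gclc encodes the catalytic subunit of the first enzyme of glutathione synthesis and was chosen after its value was seen. The number of called probes was 6 of 22, with 4 higher and 2 lower, when either replicate 1 or replicate 3 of the DJ-1 siRNA was left out. The whole array also had fewer then, 2444 of 17166 (1257 higher, 1187 lower) and 2612 of 17172 (1330 higher, 1282 lower). The NRF2 gene Nfe2l2 rose on its tested probe, at a log2 fold change of 0.73 with a standard error of 0.13 (adjusted p = 0.00918, limma). Its other probe (ILMN_1214369) was detected on 1 scramble array only and was not tested. Keap1, the inhibitor that holds NRF2 in the cytosol, fell on 2 of its 4 probes, at log2 fold changes of -0.46 and -0.42 (adjusted p of 0.018 and 0.0364 from limma), and the others were at -0.31 and -0.27. Neither Keap1 call was kept when DJ-1 siRNA replicate 1 was left out (-0.49 and -0.42), nor when replicate 3 was (-0.40 and -0.37). The probe with the smaller fall was not called either when scramble replicate 1 (-0.40) or 2 (-0.37) was left out, with background correction followed by the 75th percentile shift, with no filter or with the methods' t-test, and was called under 7 of 14 alternatives. The probe at -0.31 was in turn called without scramble replicate 3 (-0.43).

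Probes outside the family that followed the brighter TXNIP probe most closely over the 6 arrays were sought by Pearson correlation of normalized log2 signal. Among the 5 with the highest values were those of Ryk (0.999), Acot13 (0.9985), Prickle3 (0.998) and ANKRD28 (0.998). With the arrays in separate groups, such values mostly reflect the difference between the groups, and they describe these arrays only. ANKRD28 rose by 1.13 and Acot13, an acyl-CoA thioesterase, by 0.63 on the log2 scale. Ryk was at 0.30 (adjusted p = 0.0414 from limma), with its call lost whichever single array was left out (0.29 to 0.33), and Prickle3 at 0.21 was not called (adjusted p = 0.108 from limma), although it was under 4 of 14 alternatives (0.20 to 0.34 over all 14).

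Markers of the cells are given beside these results. Of 33 tested probes for 20 skeletal muscle genes, 18 fell and 2 rose (limma), or 54.5% and 6.06%, against 13.6% and 16.5% over the array. With the methods' t-test 11 were lower and 1 higher, against 1680 and 1994 of 17890 over the array. Their median log2 fold change was -0.52. Their summed deposited signal over 40 probes was 364510, 366880 and 342440 with the control siRNA, against 305120, 349900 and 260030 after *Dj1* knockdown. The called changes furthest from 0 in the list were those of adult myosin genes, Myh4 at -3.72 and Myh1 at -2.19 and -1.93 on the log2 scale (adjusted p of 0.00224, 0.00284 and 0.00304 from limma), although Myh4 was at -1.91 without background correction and was detected on 1 DJ-1 siRNA array. The 2 probes that rose were both of Ttn, at 1.77 and 0.76, while 3 other Ttn probes fell, at -0.76, -0.64 and -0.59. The Ttn probe at 0.76 was detected on 1 scramble array and on all 3 DJ-1 siRNA arrays. It thus passed the filter through the knockdown group, and the size of its rise is uncertain. Acta1 (-0.005), Ckm (-0.07) and Myog (0.22 and -0.11) were not called, and these and the Ttn probes were chosen after their values were seen. Muscle identity was plain on every array, with 30 of the 40 probes detected on all 6.

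Of 13 tested probes for undifferentiated or cycling myoblasts, 6 fell and 0 rose (limma), or 46.2% against 13.6% lower over the array. By the methods' t-test 1 was higher and 3 lower after adjustment (1994 and 1680 of 17890 over the array). Their summed signal was 17705, 19067 and 16974 with scramble siRNA and 14464, 17630 and 12026 with DJ-1 siRNA, with Ccnd1 the highest when averaged over the 6 arrays. Id3 fell, at -1.40 on the log2 scale (-0.70 without background correction), as did Pcna at -0.57 and Id1 at -0.57 (adjusted p of 0.00494, 0.00916 and 0.026 from limma). With single arrays left out, Id1 was called only without scramble replicate 1 (-0.71), and its values ran from -0.71 to -0.48. The list was mixed, since 5 of the 13 probes had a positive change, none of them called by limma. These were the probes of Mki67 (0.47 and 0.20), Top2a (0.25 and 0.23) and Cdk1 (0.30), chosen after their values were seen. The satellite cell marker Pax7 was not detected. Of the fibroblast and fat cell markers, 2 of 11 probes were tested and 7 were detected on no array. Pdgfra, the highest of them when averaged over the 6 arrays, was at -0.58 (adjusted p = 0.0493 from limma) and with single arrays left out kept its call only when DJ-1 siRNA replicate 2 was absent (-0.76), at values from -0.76 to -0.41. The other tested probe, of Dpt, was chosen after its value was seen and was at 0.44 (95% confidence interval -0.37 to 1.24, adjusted p = 0.363 from limma). The summed signal of these markers was 2462.6, 2556.9 and 2412.6 with the control siRNA, against 2204.6, 2614 and 1925.2 after *Dj1* knockdown. These sums include background, which was not subtracted, and the 7 probes detected on no array add to them.

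The arrays themselves differed as well. Bead noise, as the median over probes of the standard error between beads, was 11.3, 8.3 and 8.66 with the control siRNA, against 7.17, 6.36 and 5.88 after *Dj1* knockdown, and so was higher on every scramble array. The number of detected probes ran from 16985 to 18179 with scramble siRNA and from 18408 to 18857 with DJ-1 siRNA. The part that cell markers or bead noise have in the changes of TXNIP and the peroxiredoxins was not tested.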

How the data were processed

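Labelled RNA of C2C12 myotubes, 3 arrays per siRNA, was hybridized to an Illumina mouse BeadChip. For each of 45281 probes the authors deposited the mean signal intensity, neither normalized nor background-subtracted, with a detection p-value, the standard error over beads and the number of beads. In that deposited table the intensity and p-value columns of each array were matched to samples by title. Nothing in the labels says how the cultures relate, so p-values measure the spread between these samples.

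Signals were processed with neqc (normexp with an offset of 16, background from the detection p-values, quantile normalization, log2) in limma 3.58.1 under R 4.3.3. A probe was tested if its detection p was below 0.05 on 3 or more of the 6 arrays. The groups were compared by lmFit and eBayes, with Benjamini-Hochberg adjustment over all 17890 tested probes. Gene names were updated through RefSeq for 32345 probes, otherwise those of the file were kept. The members and lists were chosen with earlier results of these data known. Named were all member probes, Park7, the 3 called probes of each list with the largest change, all probes of Txnrd2, Srxn1, Nfe2l2, Keap1 and Mlxip, and 4 of the 5 probes most correlated with TXNIP. Probe sequences were not used here. The number of arrays limits the precision. The procedure was tested on simulated data.

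The 14 alternatives were no background correction, a shift to a common 75th percentile with or without it, no filter, detection p under 0.01 on all arrays, a trend of the prior variance, a block for the replicate number, the methods' t-test (unmoderated, named by the study for measurements other than its arrays, for which it names a moderated test) and each array left out, with the mean of the probes of a gene in addition for the members.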

Additional observations from a re-analysis of the deposited data

How the results depend on the processing

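Park7 and both TXNIP probes were called under each of the 14 alternatives. Park7 ran from -1.24 to -1.0029. The other calls in the family depended on the processing. The number of called member probes was 5 of 13 as reported, against 5387 of 17890 over the array. It was 3 of 13, against 5403 of 17890, when background correction was followed by the 75th percentile shift. With no filter (all array probes then tested) it was 2 of 19, against 3519 of 45281. With probes averaged by gene it was 2 of 9 (TXNIP higher, PRDX3 lower), and the array was not counted. With each array left out it ran from 2 to 4 of 13, while the array ran from 2444 of 17166 to 5302 of 17613. In each of these counts over probes both TXNIP probes were included. The called PRDX1 probe was at -0.18 with the first shift and -0.23 without background correction as well.

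The number of called probes across the array was 3519 of 45281 with no filter. It ran from 2444 of 17166 to 5302 of 17613 with each array left out, where fewer arrays were compared. It was 6296 of 17890 without background correction, and 5403 and 6291 with the 75th percentile shift after and without background correction. With the stricter detection filter it was 5304 of 12962, and with the trend 6470 of 17890. For the thioredoxin partners it was 4 of 29 as reported, 9 without background correction, and 7 and 9 with that shift after and without background correction. It was 7 of 26 with the stricter detection filter and 9 of 29 with the trend, and ran from 4 to 6 with each array left out. For the NRF2 targets it ran from 6 to 11. The cause was not tested.

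Signs turned only for values that were not called. The bright PRDX2 probe was at 0.1282 and 0.071 with the shift after and without background correction. The dim PRDX2 probe was at -0.0176 with the shift and no background correction, and ran from -0.137 to 0.0977 with each array left out. The dim PRDX1 probe ran from -0.4515 to 0.0826 and Txnrd2 from -0.1219 to 0.0542 with each array left out.

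Same-numbered arrays of the groups did not deviate together (correlations of 0.054, 0.047 and 0.02), although each array correlated best with its own number. With the replicate number as a block 2 of 13 member probes were called, both of TXNIP, and 4350 of 17890 probes across the array. Park7 was at -1.16, the partners had 5 called probes and the NRF2 targets 9. Signal near background limits the dim probes most, among them Arrdc4 and Srxn1.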
